A study of Mus musculus with 30 samples.

Results

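CK666 and cytochalasin D (CytoD) were compared directly with each other in mouse marrow-derived mesenchymal stem cells (MSCs) treated for 24 h. The comparison held 6 of the 30 ATAC-seq libraries of the series, chosen by their labels, with 3 libraries per drug. The 3 libraries of untreated control MSCs from the same experiment were used to tell which drug had moved a window away from control. All 3 groups were MSCs obtained from the bone marrow of male C57BL/6J mice and differed by drug alone; the labels give no dose, and nothing in them says whether the libraries of a group came from separate cultures, so that p-values measure the spread between these libraries. The early libraries, MSCs and NIH3T3 cells (a mouse embryonic fibroblast line) with or without CK666 for 4 h, were used to follow the same places.

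Actin is found in the cytoplasm as well as in the nucleus, as monomers and as filaments. The Arp2/3 complex starts new filaments as branches on older ones, while formins extend unbranched filaments. CK666 is a small molecule that holds the Arp2/3 complex in its inactive state, so that branches are not nucleated. CytoD caps the growing end of filaments and depolymerizes them, and in MSCs it is known to send actin into the nucleus. Free actin monomers bind MRTF, the coactivator of the serum response factor SRF, and hold back the genes of the cytoskeleton that both turn on. Tension on filaments acts on YAP, the coactivator of TEAD factors. In ATAC-seq a transposase cuts accessible DNA, and the number of reads in a window of the genome, here a consensus peak of 500 bp or more, measures how open that place is.

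Fragments of accessible windows are shown first, since the drugs differed in the short words of DNA that their windows held. Each is the central 200 bases of a window in GRCm38 (mm10), plus strand, from the RefSeq copy of the chromosome. Capitals mark each match to 6 of the 12 motifs searched: the ATF4-C/EBP composite element, AP-1, C/EBP, TEAD, RUNX and NFI. The first 3 lines have the largest excess in CK666 and the next 3 the largest excess in CytoD. These were chosen among windows with a mean of at least 50 counts over the treated libraries. Each lay inside a protein-coding gene or within 50 kb of its TSS. Then come the leading pair among windows that the drugs moved in opposite directions from control. The last 4, chosen after their values were seen, carry the motifs of the named classes: the composite element at the promoter of Chac1 and in Sel1l, AP-1 near Ccn2, and C/EBP with RUNX near Lepr.
Grik1 chr16:88075355-88075554: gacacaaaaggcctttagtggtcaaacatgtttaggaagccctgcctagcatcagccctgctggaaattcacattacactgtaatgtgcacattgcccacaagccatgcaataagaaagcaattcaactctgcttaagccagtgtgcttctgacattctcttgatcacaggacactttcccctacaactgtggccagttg
Rap2c chrX:51010425-51010624: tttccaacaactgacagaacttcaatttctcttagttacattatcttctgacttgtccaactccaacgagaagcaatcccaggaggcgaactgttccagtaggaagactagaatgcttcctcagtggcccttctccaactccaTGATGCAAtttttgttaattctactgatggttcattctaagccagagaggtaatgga
Arhgap1 chr2:91664886-91665085: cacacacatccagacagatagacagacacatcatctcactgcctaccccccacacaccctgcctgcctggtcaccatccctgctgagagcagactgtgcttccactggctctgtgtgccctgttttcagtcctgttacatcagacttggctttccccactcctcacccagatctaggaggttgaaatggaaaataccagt
St7l chr3:104890329-104890528: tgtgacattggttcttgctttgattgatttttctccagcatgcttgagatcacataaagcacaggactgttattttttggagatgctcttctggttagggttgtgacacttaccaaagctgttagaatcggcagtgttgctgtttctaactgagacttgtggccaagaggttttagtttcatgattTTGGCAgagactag
Try4 chr6:41256018-41256217: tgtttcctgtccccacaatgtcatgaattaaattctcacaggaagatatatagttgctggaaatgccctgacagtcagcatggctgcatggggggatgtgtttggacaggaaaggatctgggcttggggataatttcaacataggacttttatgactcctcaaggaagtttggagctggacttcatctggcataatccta
Sugct chr13:17438984-17439183: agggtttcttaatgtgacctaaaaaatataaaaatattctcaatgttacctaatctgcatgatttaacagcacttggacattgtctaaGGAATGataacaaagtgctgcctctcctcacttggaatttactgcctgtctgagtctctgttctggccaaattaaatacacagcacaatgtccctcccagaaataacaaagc
Btc chr5:91280464-91280663: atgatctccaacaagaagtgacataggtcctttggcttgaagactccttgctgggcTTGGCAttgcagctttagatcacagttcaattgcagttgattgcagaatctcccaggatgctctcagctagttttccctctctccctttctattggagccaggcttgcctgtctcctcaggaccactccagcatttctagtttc
B230118H07Rik chr2:101052433-101052632: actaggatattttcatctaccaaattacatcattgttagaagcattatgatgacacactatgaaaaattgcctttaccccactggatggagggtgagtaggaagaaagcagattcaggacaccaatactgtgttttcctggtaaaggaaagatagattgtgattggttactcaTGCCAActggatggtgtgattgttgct
Chac1 chr2:119351006-119351205: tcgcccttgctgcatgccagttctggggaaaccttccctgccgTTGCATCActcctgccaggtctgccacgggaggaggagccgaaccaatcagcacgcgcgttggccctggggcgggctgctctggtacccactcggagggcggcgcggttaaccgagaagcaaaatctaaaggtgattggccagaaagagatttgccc
Sel1l chr12:91845491-91845690: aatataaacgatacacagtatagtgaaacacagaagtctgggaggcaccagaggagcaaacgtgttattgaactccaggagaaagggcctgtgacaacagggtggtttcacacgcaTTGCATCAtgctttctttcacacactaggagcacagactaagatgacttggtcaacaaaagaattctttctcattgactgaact
Ccn2 chr10:24554207-24554406: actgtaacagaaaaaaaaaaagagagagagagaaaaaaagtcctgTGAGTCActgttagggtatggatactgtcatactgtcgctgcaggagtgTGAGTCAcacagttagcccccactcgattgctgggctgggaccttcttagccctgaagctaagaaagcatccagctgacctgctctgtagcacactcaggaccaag
Lepr chr4:101708014-101708213: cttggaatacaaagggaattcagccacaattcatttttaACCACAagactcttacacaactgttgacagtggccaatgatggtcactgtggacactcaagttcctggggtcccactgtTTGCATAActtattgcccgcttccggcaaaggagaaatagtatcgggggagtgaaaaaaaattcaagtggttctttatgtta

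The composite element TGATGCAA (also written TTGCATCA on the other strand) was thus present in the window of Rap2c, in Sel1l and at the promoter of Chac1. No marked motif was found in the printed stretches of Grik1, Arhgap1 and Try4, which says only that these letters were not in those bases.

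Library totals were 19536094 to 21259528 counts with CK666, 14071301 to 19457534 with CytoD and 14122298 to 22352180 in control, so that windows were counted less deeply in 2 of the 3 CytoD libraries. Rank correlations between replicates were 0.872 to 0.916 and between groups 0.799 to 0.836. A tested window at the transcription start site (TSS) was present for 9 of 14 MSC marker genes, and their summed accessibility was 113 to 118 CPM per kb (counts scaled to library size and window length) with CK666, 98.4 to 107 with CytoD and 119 to 129 in control. Of 12 blood cell markers only 3 had such a window, with sums of 5.22 to 7.97, 9.08 to 12.5 and 6.31 to 8.97. Endothelial markers had 3 of 7, with sums of 6.65 to 7.26, 4.64 to 8.01 and 5.33 to 6.64. The median over all protein-coding TSS windows in control was 7.98. The leukocyte gene Ptprc and the endothelial gene Pecam1 had no TSS window, and neither had the MSC markers Eng, Nt5e, Thy1, Ly6a and Lepr. The blood cell sum was higher with CytoD than in the other groups, and its part in the results was not tested. Adgre1 contributed most, with 5.20, 4.22 and 3.57 with CytoD against 1.13, 1.26 and 1.71 in control, and Kit was also above control. Csf1r was mostly lower, with 3.95, 1.95 and 2.75 with CytoD against 3.38, 4.10 and 5.28 in control. With bulk libraries, a smaller share of cells with an open window and a less open window in each cell cannot be told apart.

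The drugs left different chromatin behind, and windows that were more open with CK666 outnumbered those more open with CytoD. Of 300323 windows tested, 6421 (2.14%) were higher with CK666 and 3418 (1.14%) were higher with CytoD, at an adjusted p under 0.01 and more than a 2-fold difference (log2 beyond 1), by edgeR's quasi-likelihood test. Together these were 9839 windows, 3.28% of those tested, and 65.3% of them were higher with CK666. This split depended on the scaling: with library totals in place of TMM (trimmed mean) factors the counts were 5165 and 4443, and the share fell to 53.8%. It was 54.8% when windows with a mean under 20 counts were removed and the rest scaled and fitted anew (4992 and 4122), while in the fit of all windows it was 64.3% to 66.3% across 4 classes of mean count. The median difference over all tested windows was -0.03 log2 units with TMM and -0.10 with library totals.

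Windows higher with CK666 also differed by more. Their median log2 difference was 1.46 (quartiles 1.19 to 1.94), and 1471 (22.9%) passed a log2 difference of 2. In windows higher with CytoD the median was 1.32 (1.15 to 1.61), and 308 (9.01%) passed 2. The median window of the first kind held 70.9 normalized counts with CK666, 25.3 with CytoD and 34.5 in control. The median of the second kind held 27.2 with CK666, 66.2 with CytoD and 40.6 in control. In 6411 windows of the first kind and 3385 of the second no CK666 library overlapped a CytoD library, while this was the case in 28.2% of all tested windows.

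Comparing each drug with control showed what separated them at each window. These contrasts share libraries with the direct comparison and the same 3 controls with each other, so the classes are a description. Against control, CK666 had 5641 windows gained (1.88%) and 3184 lost (1.06%), and CytoD had 2944 gained (0.98%) and 4207 lost (1.4%). Of the windows higher with CK666, 2992 (46.6%) had gained accessibility with CK666 while CytoD passed no limit. A further 873 (13.6%) had lost accessibility with CytoD while CK666 passed none. In 27 windows CK666 gained and CytoD lost, in 35 both moved the same way, and in 2494 (38.8%) neither passed against control. The windows higher with CytoD were divided more evenly. CytoD had gained in 748 (21.9%), CK666 had lost in 676 (19.8%), 5 were moved in opposite directions, 7 in the same direction, and 1982 (58.0%) passed in neither contrast. In the 2494 windows the median difference from control was 0.68 with CK666 and -0.68 with CytoD, and in the 1982 windows it was -0.69 and 0.70.

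**Figure D1:**
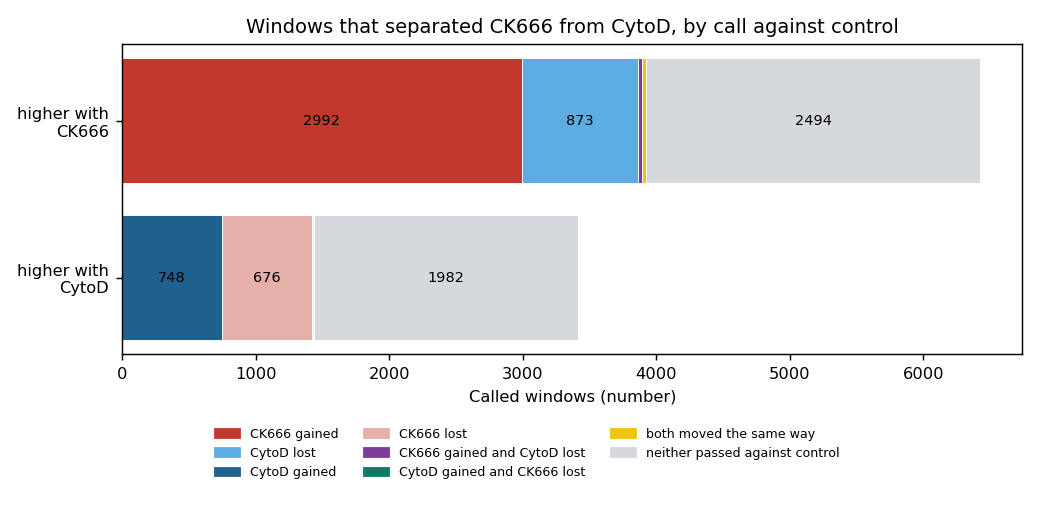
Number of windows that separated CK666 from CytoD (x axis), for windows higher with CK666 (upper bar, 6421) and higher with CytoD (lower bar, 3418), divided by colour according to what each drug did against control. CK666 gain alone is the widest block of the upper bar (2992), while gain with CytoD (748) and loss with CK666 (676) are nearly equal in the lower bar.

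Windows averaging 50 counts or more, inside a protein-coding gene or within 50 kb of its TSS, were ranked by difference. The largest differences in favour of CK666 were at windows that were almost closed in the other groups. An intron window of Grik1, a kainate-type glutamate receptor gene (chr16:88075203-88075708), held 184, 189.7 and 143 normalized counts with CK666, 7.63, 3.64 and 4.57 with CytoD and 2.6, 10.2 and 14.3 in control. All CK666 libraries stood far above every other library, and the log2 difference between the drugs was 5.02 (SE 0.32, adjusted p = 1.47e-22). An intron window of Rap2c, a Ras-like GTPase gene (chrX:51010266-51010785), held 125, 117 and 145 counts with CK666 against 2.54, 4.86 and 5.49 with CytoD and 11.7, 12.8 and 2.68 in control (log2 4.83, SE 0.36, adjusted p = 3.66e-19). In Arhgap1, which encodes a GTPase-activating protein for Cdc42 (chr2:91664731-91665242), the counts were 137, 134 and 152 with CK666, 12.7, 2.43 and 3.66 with CytoD and 13, 10.2 and 6.26 in control. In these windows CytoD and control libraries overlapped, so the separation came from CK666.

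The same arrangement was found in another 4 windows by size. They lay in introns of Dlgap1, Wdfy3 (an autophagy adaptor), Chmp4c (a subunit of the ESCRT-III membrane scission complex) and App (the amyloid precursor protein). Their log2 differences were 4.48 (SE 0.24), 4.29 (0.29), 4.04 (0.20) and 4.04 (0.20). Chmp4c held the highest level, 363, 354 and 406 with CK666, 35.6, 10.9 and 21.9 with CytoD and 20.8, 39.2 and 41.1 in control.

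Differences in favour of CytoD were smaller and of more than 1 kind. In an intron of St7l (chr3:104890136-104890723) the counts were 15, 12.2 and 17.7 with CK666, 73.8, 82.6 and 104 with CytoD and 9.09, 30.7 and 24.1 in control (log2 -2.54, SE 0.31, adjusted p = 3.21e-10). This window opened with CytoD against control, as did those nearest Try4, Olfr172 and Ism1. The windows of Olfr172 and Ism1 had closed with CK666 as well. An intron window of Sugct (chr13:17438782-17439387), a mitochondrial glutarate CoA-transferase gene, showed the other kind. It held 16.9, 20 and 14.7 counts with CK666, 76.3, 97.2 and 91.4 with CytoD and 74, 78.4 and 76.9 in control (log2 -2.35, SE 0.26, adjusted p = 9.57e-12). Here CytoD and control libraries overlapped and the CK666 libraries were low.

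Rb1cc1, Itga9 and Lox belonged to the kind that closed with CK666. A window 24558 bp from the TSS of Rb1cc1, a component of the complex that starts autophagy, held 51.5, 38.3 and 55 counts with CK666, 221, 249 and 217 with CytoD and 236, 267 and 237 in control (log2 -2.25, SE 0.16). The window in Itga9, an integrin alpha subunit gene, is assigned to Ctdspl by its nearest protein-coding TSS. Its counts were 76.8, 64.4 and 48.2 with CK666, 316, 299.96 and 262 with CytoD and 218, 219 and 211 in control (log2 -2.20, SE 0.15). Lox encodes the enzyme that cross-links collagen and elastin. A wide window over its exons (chr18:52512241-52516874) held 82.4, 64.4 and 70.8 counts with CK666, 368, 312 and 326 with CytoD and 597, 445 and 536 in control (log2 -2.21, SE 0.13, adjusted p = 3.02e-24). Lox was lower than control with both drugs, by -2.85 with CK666 and by -0.64 with CytoD.

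**Figure D2:**
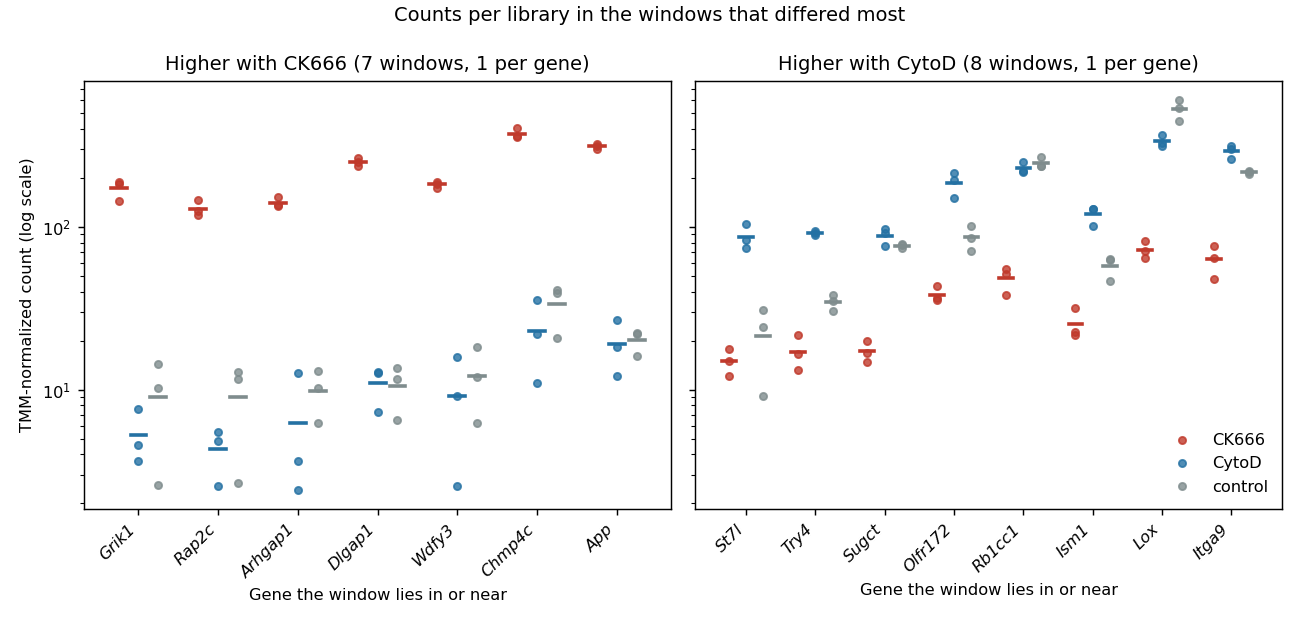
TMM-normalized counts on a log axis (y axis) in each library (points) with the mean of 3 (line), 1 window per gene (x axis). Shown are 7 windows higher with CK666 and 8 higher with CytoD, with the largest differences within the limits of count and gene position. In the left panel CytoD and control lie together far below CK666, while in the right panel control lies beside CytoD in some windows (Sugct, Rb1cc1) and nearer to CK666 in others (St7l).

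Promoters were affected less often. A window with a protein-coding TSS was called in 78 of 16680 cases (0.47%) for CK666 and in 37 (0.22%) for CytoD. Of such windows averaging 50 counts or more over the treated libraries, the 4 with the largest excess in CK666 were the promoters of Try5 (a trypsinogen), Cdsn (corneodesmosin), Mars (methionyl-tRNA synthetase) and Bglap2 (an osteocalcin gene). The Mars promoter (chr10:127296873-127298134) held 222, 198 and 236 counts with CK666, 31.8, 66.8 and 38.4 with CytoD and 50.6, 69.9 and 54.5 in control (log2 2.27, SE 0.19, adjusted p = 1.87e-16). The Cdsn promoter differed by 2.54 (SE 0.26). The Bglap2 promoter held 73, 79.2 and 101 counts with CK666, 12.7, 27.9 and 24.7 with CytoD and 18.2, 15.3 and 8.94 in control (log2 1.93, SE 0.29). Its near-identical neighbour Bglap, the osteocalcin of bone matrix, held 39.3, 33.9 and 29.5 counts with CK666 and 16.5, 12.1 and 7.31 with CytoD (log2 1.54, SE 0.41, adjusted p = 5.65e-03), and this call was lost when any of 5 libraries was left out (adjusted p up to 0.0660). Reads may be shared between these copies, as between trypsinogen copies such as Try5 and Try4, so these values are uncertain.

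Within the same count limit, the 4 promoters with the largest excess in CytoD were those of Hal, Olig1, Glp2r and Acaca. Hal encodes histidine ammonia-lyase, and its promoter (chr10:93487153-93489296) held 233, 221 and 208 counts with CK666, 658, 657 and 657 with CytoD and 383, 452 and 437 in control (log2 -1.57, SE 0.10, adjusted p = 4.54e-23). Control lay between the drugs at Hal. Acaca encodes acetyl-CoA carboxylase, which makes the substrate of fatty acid synthesis. One of its start sites held 46.8, 49.6 and 36.4 counts with CK666, 104, 101 and 127 with CytoD and 23.4, 42.6 and 36.6 in control (log2 -1.32, SE 0.22, adjusted p = 3.43e-06), and control overlapped CK666. The promoters of Olig1 and Glp2r differed by -1.44 (SE 0.22) and -1.33 (SE 0.23).

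Windows that separated the drugs were poorer in GC and farther from a TSS than all tested windows, and those higher with CK666 were also narrow. Their median width was 583 bp, against 652 bp in windows higher with CytoD and 655 bp in all tested windows. The median distance to a protein-coding TSS was 30416, 38540.5 and 23470 bp in the same order. Introns held 46.3% of windows higher with CK666, 44.4% of those higher with CytoD and 42.9% of all tested. Among windows that contain a promoter (a GENCODE TSS of any transcript) 0.80% were higher with CK666 and 0.40% with CytoD, against 1.58% and 0.91% in exons, 2.31% and 1.18% in introns, and 2.43% and 1.33% between genes. Beyond 200 kb from a protein-coding TSS these shares reached 2.84% and 1.57%. Of windows under 40% GC, 3.49% were higher with CK666 and 2.31% with CytoD, while at 60% GC or more only 0.14% and 0.20% were. Width divided the drugs. Of windows under 600 bp 3.21% were higher with CK666 and 1.04% with CytoD, so that 75.6% of the calls in this class were in favour of CK666. In windows of 600 to 1000 bp it was 1.49% and 1.23%, and 54.8% of calls. The narrow class held 57.2% of all windows higher with CK666. Narrow windows also hold few reads, and peaks called per library were merged into the windows, so the part of peak calling in this was not tested. Among chromosomes, the share higher with CK666 was largest on chromosome 13 (3.67%) and chromosome X (3.08%) and smallest on chromosome 17 (1.46%). For CytoD the X chromosome (2.13%) and chromosome 3 (1.88%) led, apart from chromosome Y with 3 of only 40 windows.

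**Figure D3:**
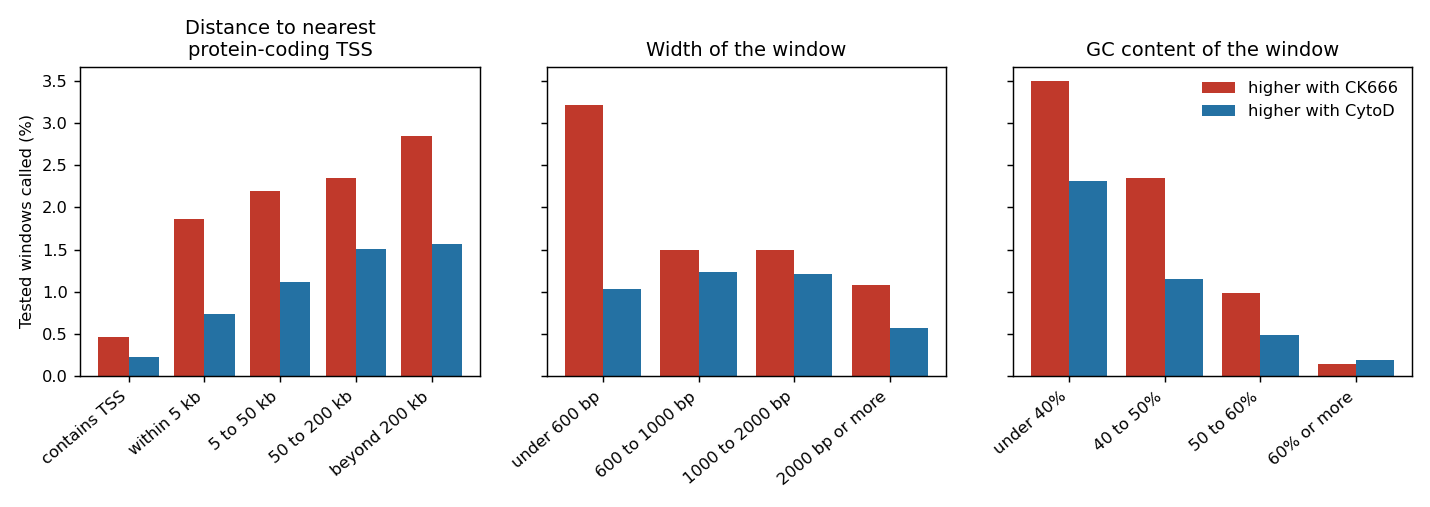
Percent of tested windows called (y axis) as higher with CK666 (red) or with CytoD (blue) by distance to the nearest protein-coding TSS, window width and GC content (x axes of the 3 panels). Both bars rise with distance from the TSS and fall with GC content, and the red bar stands well above the blue one in windows under 600 bp (3.21% against 1.04%).

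The DNA of the windows differed between the drugs in some of the motifs. In their central 300 bases both strands were searched for 12 motifs, and a match is a description of the letters, not of a bound factor. The ATF4-C/EBP composite element (TGATGCAA or TGATGAAA) is the site through which the stress factor ATF4, paired with a C/EBP factor, acts on amino acid and stress response genes. It was present in 17.6% of windows higher with CK666, in 3.10% of those higher with CytoD and in 3.23% of all tested windows. Of windows that CK666 had opened against control 26.7% held it, against 5.38% of those that CytoD had closed. Its share rose with the size of the difference, from 9.89% of windows with a log2 difference of 1 to 1.5 over 18.2% and 32.2% to 46.1% of the 284 windows beyond 3. Seen from the motif, 1131 of 9711 windows with the element were higher with CK666 (11.6%) and 106 with CytoD (1.09%), against 1.82% and 1.14% of windows without it.

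AP-1 sites (TGANTCA, with N as C or G), which are bound by Fos and Jun proteins, behaved in another way. They were present in 31.9% of windows higher with CK666, 9.95% of those higher with CytoD and 16.2% of all. However, their share was highest where CytoD had closed the window (46.6%) and in windows that passed against control in neither contrast (39.6%), and lower where CK666 had opened it (21.4%). It was 4.41% where CytoD had opened the window and 17.2% where CK666 had closed it. It fell from 38.4% of windows with a log2 difference of 1 to 1.5 to 14.8% beyond 3, the reverse of the composite element. Thus the small differences in favour of CK666 were rich in AP-1 sites and the large ones in the composite element.

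The C/EBP words (TTGCGCAA, TTACGCAA, TTGCATCA and TTGCATAA) include the reverse complement of TGATGCAA, so windows that held a C/EBP word and no composite element were counted apart. They made up 4.04% of windows higher with CytoD, 1.18% of those higher with CK666 and 1.34% of all tested windows. Of 4010 such windows 3.44% were higher with CytoD and 1.90% with CK666. The remaining motifs separated the drugs less. For RUNX (TGTGGT) the shares were 29.9% with CK666, 32.9% with CytoD and 27.7% of all, and for the NFI word TTGGCA 18.7%, 22.3% and 17.8%. TEAD words (GGAATG) were found in 21.3%, 21.4% and 19.9%, with 31.0% in windows that CytoD had closed and 27.4% where CK666 had closed. The CArG box, through which SRF acts, was rare (1.60%, 1.64% and 1.55%), with 2.98% where CytoD had closed. GC boxes (GGGCGG) were scarce in both kinds, 3.60% and 3.01% against 7.77%, as was the AhR core GCGTG, 10.9% and 8.57% against 15.4%. Among tested windows without promoters the shares were 5.29% and 13.6%, so part of the gap went with the small number of promoters called. GC content was not matched either. E-box words (CAGCTG or CATCTG) were found in 40.4%, 35.9% and 38.2%.

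**Figure D4:**
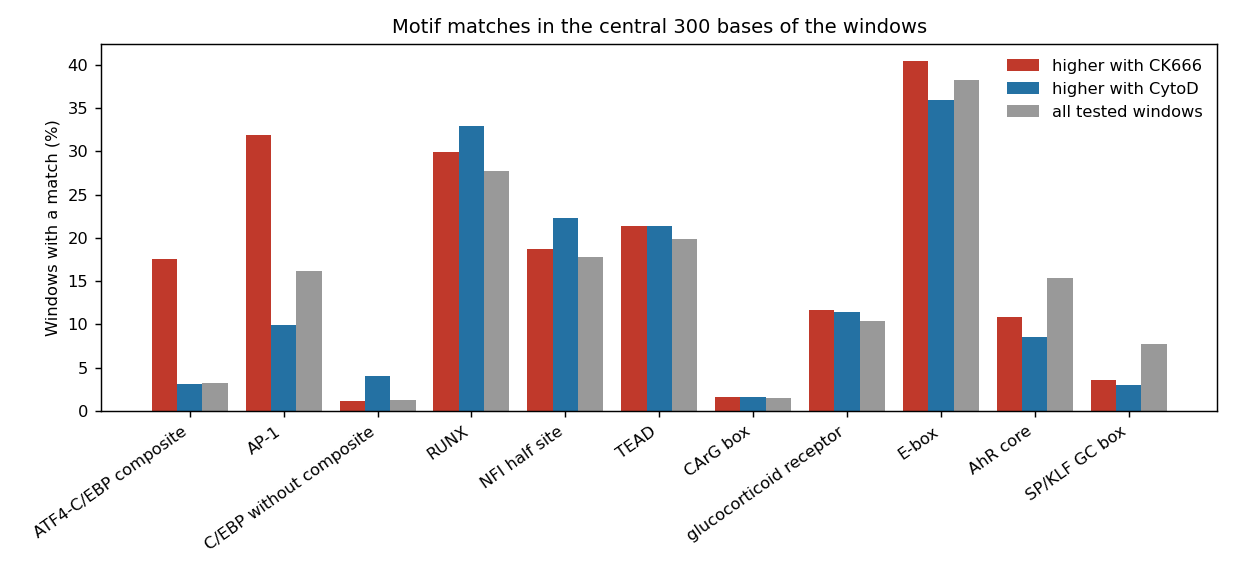
Percent of windows (y axis) with a match to each motif (x axis) in their central 300 bases, for windows higher with CK666, windows higher with CytoD and all tested windows. The composite element (17.6% against 3.10%) and AP-1 (31.9% against 9.95%) show the widest gaps in percentage points between the red and blue bars.

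Genes of the unfolded protein response held the highest share of called windows among 18 gene lists. A window was given to a gene when its nearest protein-coding TSS lay within 50 kb, and 1.97% of all such windows were higher with CK666 and 0.951% with CytoD. These lists were drawn up with earlier results of the same data known. The cell uses this response to handle misfolded protein in the endoplasmic reticulum through the sensors Ern1 (IRE1), Atf6 and PERK, the last of which leads to ATF4. Of 301 windows near its genes 22 (7.31%) were higher with CK666 and 1 (0.33%) with CytoD. The 22 windows belonged to 9 of the 24 genes with a tested window, Asns, Atf6, Chac1, Dnajb9, Ern1, Herpud1, Hspa5, Sel1l and Trib3. Chac1 alone held 5 of them, so the share does not describe every gene of the list. Against control, CK666 had opened 12, CytoD had closed 1, and 9 passed in neither contrast. The composite element was present in 7 of the 22. The median log2 difference over the 301 windows was 0.18, against -0.01 over all, and at TSS windows it was 0.28 against 0.09. Leaving out a library gave 18 to 22 windows in favour of CK666 and 1 or 2 in favour of CytoD.

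Chac1, which degrades glutathione and is a known target of ATF4, was called at 5 of its 8 windows. Its promoter (chr2:119350835-119351377) held 269.7, 263 and 348 counts with CK666, 90.3, 111 and 118 with CytoD and 209, 217 and 207 in control (log2 1.45, SE 0.14, adjusted p = 2.76e-14). All 3 groups stood apart here, with CytoD below control. Of the other 4 Chac1 windows, those at 6841 and 16883 bp from the TSS lost their call when a library was left out (adjusted p up to 0.0118 and 0.0801). A window 3236 bp from the TSS of Sel1l, which serves the degradation of misfolded proteins, held 359.6, 345 and 306 counts with CK666, 58.5, 48.6 and 48.5 with CytoD and 53.2, 29 and 47.4 in control (log2 2.70, SE 0.17, adjusted p = 1.90e-23). Near Trib3, a pseudokinase that feeds back on ATF4, 6 of 10 windows in a stretch of 15106 bp were higher with CK666. One of those nearest Trib3 held 32.8, 46.1 and 46.2 counts with CK666, 6.36, 4.86 and 7.31 with CytoD and 10.4, 11.1 and 8.04 in control (log2 2.71, SE 0.44).

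Other members of the response moved less firmly. Hspa5 encodes BiP, the main chaperone of the endoplasmic reticulum. A window 1418 bp from its TSS held 217, 209.7 and 239 counts with CK666, 78.9, 117 and 90.5 with CytoD and 151, 177 and 169 in control (log2 1.22, SE 0.15, adjusted p = 4.58e-10). An intron window assigned to Ern1, 48433 bp from its TSS, differed by 2.85 (SE 0.48, adjusted p = 4.20e-06). The TSS window of Herpud1 held 32.8, 22.6 and 17.7 counts with CK666 and 5.09, 2.43 and 6.4 with CytoD (log2 2.33, SE 0.60, adjusted p = 3.80e-03), but lost its call without any of 4 libraries (adjusted p up to 0.0717). The only window in favour of CytoD lay 17743 bp from the TSS of Xbp1, the factor that IRE1 activates by splicing, with 17.8, 20 and 27.5 counts with CK666, 58.5, 54.6 and 58.5 with CytoD and 20.8, 33.2 and 37.5 in control (log2 -1.39, SE 0.30, adjusted p = 3.23e-04).

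Genes of the Arp2/3 complex, which CK666 acts upon, and of its activators held 9 windows of 336 (2.68%) higher with CK666. In favour of CytoD they held 2 (0.60%). The shares near all genes were 1.97% and 0.951%. A window 2510 bp from the TSS of Arpc5l, a subunit of the complex (chr2:39010586-39011704), held 235, 232 and 225 counts with CK666, 25.4, 37.6 and 53 with CytoD and 62.3, 32.4 and 38.4 in control (log2 2.53, SE 0.20, adjusted p = 4.05e-18). Abi1, part of the WAVE complex that activates Arp2/3, had an intron window that held 135, 114 and 100.2 counts with CK666, 33.1, 24.3 and 16.5 with CytoD and 22.1, 11.9 and 17.9 in control (log2 2.27, SE 0.26). Thus CK666 alone stood apart at both. Both windows in favour of CytoD, near Actr3 (the Arp3 subunit) and Wasl (N-WASP), lost their call when a library was left out. The number in favour of CK666 fell to 5 without CytoD replicate 3, and 1 was left in favour of CytoD without any of the 6 treated libraries or without control replicate 2. None of 24 TSS windows of these genes was called in either direction.

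Of 354 windows near formin genes 5 (1.41%) were higher with CK666 and 2 (0.56%) with CytoD, against 1.97% and 0.951% near all genes. The formin windows with the largest difference lay in introns of Daam1, a formin of the Wnt planar polarity pathway. The first held 167, 154 and 138 counts with CK666, 33.1, 37.6 and 28.3 with CytoD and 51.9, 30.7 and 46.5 in control (log2 2.22, SE 0.22). The other held 241, 234 and 231 with CK666, 44.5, 59.5 and 65.8 with CytoD and 109, 88.6 and 90.3 in control (log2 2.03, SE 0.17). The windows in favour of CytoD, near Fmn2 and Diaph2, lost their call without any of 7 and 8 libraries (adjusted p up to 0.0627 and 0.0525). Without CytoD replicate 2 the windows in favour of CK666 numbered 9. Regulators of actin monomers and filaments, such as cofilins, profilins and gelsolin, had 6 of 409 windows (1.47%) higher with CK666 and 2 (0.49%) with CytoD, but the first count was 3 without CK666 replicate 1 and 1 without CK666 replicate 3, and the second was 0 without CK666 replicate 2 and 1 without CytoD replicate 3 or control replicate 1.

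Windows near all genes were higher with CK666 in 1.97% and with CytoD in 0.951%. MRTF-SRF targets, the genes of the contractile cytoskeleton, held few windows that separated the drugs, 3 of 427 (0.70%) in each direction. Without CytoD replicate 2 those in favour of CK666 were 5, and without CytoD replicate 3 they were 6. An intron window of Zyx (zyxin) held 143, 111 and 99.3 counts with CK666, 31.8, 21.9 and 39.3 with CytoD and 55.8, 55.4 and 23.2 in control (log2 1.90, SE 0.25). Myh9, the heavy chain of non-muscle myosin IIA, had an intron window at 205, 151 and 196 with CK666, 71.3, 68 and 71.3 with CytoD and 64.9, 99.7 and 80.4 in control (log2 1.39, SE 0.17). In Cald1 (caldesmon) the counts were 48.7, 45.2 and 39.3 with CK666, 76.3, 115 and 108 with CytoD and 70.1, 76.7 and 84 in control (log2 -1.17, SE 0.21). A window near Mical2 had the largest difference of all windows called in favour of CytoD (log2 -3.88). It lost its call without CytoD replicate 3 and in a fit with DESeq2.

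Near YAP-TEAD targets 19 of 797 windows (2.38%) were higher with CK666 and 8 (1.0%) with CytoD, close to the shares of all genes. The second count was 5 without CytoD replicate 1 and 4 without CytoD replicate 2. Of the 19, CK666 had opened 8 and CytoD had closed 6, and 9 held an AP-1 site. Myof (myoferlin) and Rbms3 belonged to the opened ones. In Rbms3 the counts were 441, 423 and 464 with CK666, 99.3, 55.9 and 116 with CytoD and 67.5, 82.7 and 71.5 in control (log2 2.27, SE 0.14, adjusted p = 1.19e-22). Near Ccn2, a matricellular protein and a classical YAP target, a window 40870 bp from the TSS, whose sequence is printed above, held 163, 139 and 205 counts with CK666, 76.3, 81.4 and 60.3 with CytoD and 179, 199 and 208 in control (log2 1.23, SE 0.16). Here CK666 and control libraries overlapped and CytoD was low. A window 21715 bp from the TSS of Ccdc80 followed the same order, with 92.7, 85.3 and 96.3, then 22.9, 31.6 and 23.8, and 135, 146 and 151 (log2 1.81, SE 0.22). In the other direction a window of F3 (tissue factor) held 35.6, 26.1 and 43.2 counts with CK666, 92.9, 109 and 115 with CytoD and 31.2, 46 and 46.5 in control (log2 -1.61, SE 0.23).

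Focal adhesion and contractility genes had 24 of 840 windows (2.86%) higher with CK666 and 9 (1.07%) with CytoD (all genes: 1.97% and 0.951%). However, the first count was 15 without CK666 replicate 3. The second was 4 without CK666 replicate 1 or 2 and 5 without CK666 replicate 3 or CytoD replicate 1 or 3. Lims1 (PINCH1), which couples integrins to actin, had a window at 86.1, 88.7 and 100.2 counts with CK666, 20.4, 26.7 and 19.2 with CytoD and 77.9, 68.2 and 97.4 in control (log2 2.06, SE 0.25), closed by CytoD. An intron window of Itgav, the integrin alpha-V gene, held 62.7, 53.1 and 33.4 with CK666, 177, 187 and 218 with CytoD and 152, 145 and 176 in control (log2 -1.96, SE 0.17, adjusted p = 2.20e-15), closed by CK666. Extracellular matrix genes had 15 of 662 (2.27%) and 8 (1.21%), the latter 5 without CytoD replicate 1. A window 25559 bp from the TSS of Col4a1, a basement membrane collagen, held 129, 117 and 160.2 counts with CK666, 12.7, 14.6 and 12.8 with CytoD and 36.4, 34.9 and 23.2 in control (log2 3.33, SE 0.27, adjusted p = 2.41e-17), so the drugs lay on either side of control.

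All genes together had 1.97% of windows higher with CK666 and 0.951% with CytoD. Among signalling genes, those of the BMP and TGF-beta pathways had 21 of 654 windows (3.21%) higher with CK666 and 1 (0.15%) with CytoD. The count was 15 to 21 when a library was left out, and the median over all 654 windows was -0.08. In Smad9, which transmits BMP signals, an intron window held 130.2, 93.1 and 114 counts with CK666, 31.8, 31.6 and 31.1 with CytoD and 26, 26.4 and 35.7 in control (log2 1.83, SE 0.24). The window in favour of CytoD, near Bmp2, lost its call without any of 4 libraries (adjusted p up to 0.0597), and the list held 0 to 2 such windows with a library left out. Wnt genes had 17 of 679 (2.50%) and 8 (1.18%), the latter 5 without CK666 replicate 2 or 3 and 4 without CytoD replicate 3. The Wnt receptor gene Fzd4 had windows in both directions. At 11615 bp from its TSS the counts were 105, 108 and 119 with CK666, 22.9, 21.9 and 13.7 with CytoD and 42.9, 15.3 and 33.1 in control (log2 2.53, SE 0.28). At 1664 bp they were 39.3, 43.5 and 41.3, then 102, 124 and 88.7, and 40.3, 37.5 and 46.5 (log2 -1.33, SE 0.22), opened by CytoD. Windows near AP-1 genes numbered 5 (2.48%) and 2 (0.99%) of 202, with 3 of the first without CK666 replicate 3 and 1 of the second without CK666 replicate 1 or 2 or CytoD replicate 2 or 3. Atf3, a stress-induced member, had a window at 63.7, 65.3 and 88.4 counts with CK666, 6.36, 14.6 and 14.6 with CytoD and 13, 9.38 and 17.9 in control (log2 2.57, SE 0.34). Near Jun the counts were 43.1, 32.2 and 42.3, 82.7, 111 and 85.9, and 37.7, 60.5 and 49.2 (log2 -1.25, SE 0.23).

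Near genes of fat and bone, the fates of MSCs, the shares of called windows were close to those of all genes and rested on few windows. Adipogenic genes had 4 of 214 windows (1.87%) higher with CK666 and 3 (1.40%) with CytoD, and osteogenic genes 3 (1.72%) and 1 (0.57%) of 174, against 1.97% and 0.951% near all genes. Leaving out a library gave 2 to 4 and 1 to 3 adipogenic windows, and the osteogenic windows in favour of CK666 fell to 1 without CytoD replicate 2. Nfia, a factor of brown fat, had windows in both directions, one with 85.2, 75.7 and 73.7 counts with CK666 against 40.7, 21.9 and 26.5 with CytoD (log2 1.41, SE 0.26) and one with 75.8, 94 and 80.6 against 182, 249 and 225 (log2 -1.39, SE 0.16). Control stood at 23.4, 32.4 and 35.7 and at 106, 108 and 82.2, on the side of the lower drug in both. A window near Adipoq (adiponectin) was called at an adjusted p of 6.98e-03 but not without any of 4 libraries (up to 0.0939). Near Nr4a3, an orphan nuclear receptor, the counts were 76.8, 72.2 and 98.3 with CK666, 20.4, 4.86 and 10.1 with CytoD and 6.49, 7.67 and 10.7 in control (log2 2.82, SE 0.34, adjusted p = 3.15e-10). Prkaa2, a catalytic subunit of AMP kinase, had the only osteogenic window in favour of CytoD, with 15.9, 20 and 21.6, then 52.2, 99.6 and 55.8, and 36.4, 29.8 and 42.9 (log2 -1.84, SE 0.30).

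MSC marker genes had 11 of 289 windows (3.81%) higher with CK666 and 5 (1.73%) with CytoD, against 1.97% and 0.951% near all genes. The count in favour of CytoD was 3 without CK666 replicate 1. A window near Cd44, the hyaluronan receptor, held 61.8, 59.2 and 80.6 counts with CK666, 2.54, 4.86 and 9.14 with CytoD and 5.19, 4.26 and 8.04 in control (log2 3.50, SE 0.40, adjusted p = 5.99e-11). Cxcl12, the chemokine by which marrow stroma retains blood stem cells, was higher with CytoD at 2 windows and with CK666 at 1, 38705 bp from its TSS (log2 1.03), which lost its call without CK666 replicate 3 or CytoD replicate 2. At 11357 bp from its TSS the counts were 291, 213 and 238 with CK666, 777, 746 and 721 with CytoD and 468, 499 and 624 in control (log2 -1.60, SE 0.10, adjusted p = 1.00e-22), with no overlap among the groups. The window near Lepr, the leptin receptor of marrow stroma, held 20.6, 22.6 and 28.5 counts with CK666, 80.2, 65.6 and 85.9 with CytoD and 36.4, 23.9 and 35.7 in control (log2 -1.69, SE 0.27). Endothelial markers had 5 of 86 (5.81%) and 0 (3 without CK666 replicate 3 or CytoD replicate 2), among them a window 11751 bp from the TSS of Kdr, the VEGF receptor, at 724, 682 and 666 with CK666, 243, 334 and 273 with CytoD and 539, 619 and 694 in control (log2 1.29, SE 0.10). Blood cell markers had 0 and 1 of 86, near Adgre1. The remaining lists had counts of 3 and 0 of 100 (aryl hydrocarbon receptor pathway) and 6 and 1 of 312 (lamins and LINC complex), and of these the 3 was 1 without CytoD replicate 2 and the LINC window in favour of CytoD lost its call without any of the 6 treated libraries. In the LINC gene Syne1 a window at 1466 bp from a TSS held 59.9, 48.7 and 37.3 counts with CK666, 12.7, 0 and 7.31 with CytoD and 14.3, 3.41 and 7.15 in control (log2 2.85, SE 0.46).

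**Figure D5:**
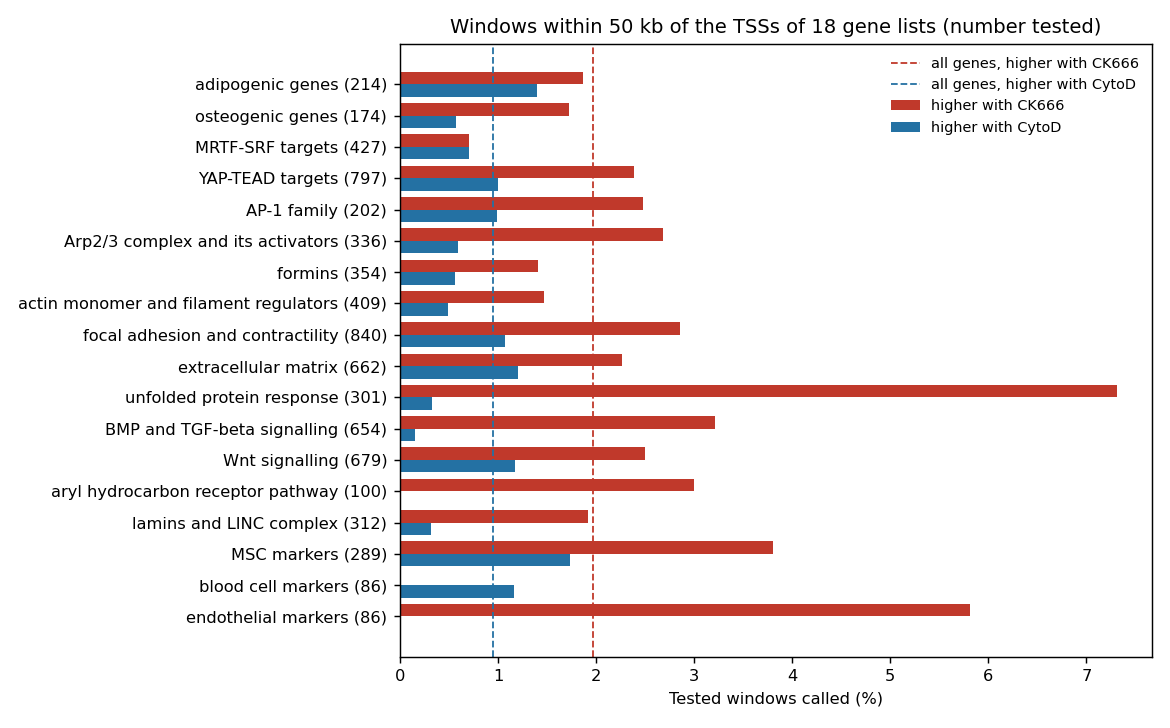
Percent of tested windows called (x axis) as higher with CK666 (red) or CytoD (blue) within 50 kb of the TSSs of 18 gene lists (y axis, number tested in brackets), with dashed lines for all genes (1.97% and 0.951%). The red bar of the unfolded protein response reaches 7.31% with a blue bar of 0.33%, while both bars of the MRTF-SRF targets are at 0.70%.

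Some windows of a kind lay together. Of the windows higher with CK666, 43.4% had another of the same kind within 50 kb, and of those higher with CytoD 31.2%. The share to be expected from the spacing of tested windows was not computed. More windows were called in favour of CK666, which by itself raises its share, so clustering was not tested. Runs of 5 or more windows numbered 31 and 9. For CK666 the 2 longest, with 8 windows each, lay at Abcc12 (chr8:86389792-86521568, 8 of 23 tested windows, 1 in the other direction) and between Areg and Btc, neighbouring EGF family ligands (chr5:91144960-91307546, 8 of 28). A run of 7 of 51 lay at Sla and Tg. For CytoD the longest run held 7 of 43 windows near Rspo2, a Wnt agonist (chr15:43008122-43085592), followed by 6 of 29 near Ptgfr, the prostaglandin F receptor (chr3:151815794-151893851). A run of 5 of 15 lay near Zbtb49 and Nsg1, and others of 5 were found. In the Rspo2 run the median difference of the called windows was -1.45 between CK666 and control and 0.14 between CytoD and control, while in the Ptgfr run it was -0.86 and 1.14.

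In all, 5927 of the 9839 called windows lay within 50 kb of a protein-coding TSS. Of 18801 genes with a tested window 3092 had a window higher with CK666, 1623 had a window higher with CytoD, and 432 had both. Asap2 and Nrcam had 6 windows each in favour of CK666, of 36 and 43 tested, and Chac1 was among those with 5. Vav3, a guanine nucleotide exchange factor, had 7 of 47 windows in favour of CytoD and 1 in favour of CK666, and Phex and Ptgfr had 5 of 25 and 5 of 31.

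Windows moved in opposite directions from control were few, 27 and 5. The largest of them lay in the run between Areg and Btc, 122174 bp from the TSS of Btc, and held 41.2, 40.9 and 59 counts with CK666, 0, 1.21 and 0 with CytoD and 13, 4.26 and 2.68 in control. With a total read count of 1 in the CytoD libraries the drug ratio was 126, with an exact 95% interval of 22.3 to 5020 that covers counting error only. A window 523289 bp from the TSS of B230118H07Rik held 171, 146 and 160.2 counts with CK666, 6.36, 9.72 and 16.5 with CytoD and 44.2, 25.6 and 25 in control (log2 3.79, SE 0.27, adjusted p = 7.24e-20). In Myo5a, the gene of a myosin that moves cargo along actin, the counts were 56.2, 47 and 39.3, then 2.54, 6.07 and 2.74, and 24.7, 11.1 and 12.5 (log2 3.63, SE 0.46).

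The MSC libraries taken after 4 h of CK666 took no part in the choice of the windows and have their own controls. At 4 h 1810 windows of 306819 (0.59%) were gained and 1310 (0.427%) were lost, in libraries of their own table, matched by overlap of at least 1 bp. Of the windows higher with CK666 than with CytoD at 24 h, 5905 had a tested counterpart, of which 711 (12.0%) had gained at 4 h and 7 had lost, with a median log2 change of 0.38 and 79.0% above 0. Over all counterparts 0.785% had gained and 0.443% had lost. Among those that CK666 had opened at 24 h, 24.4% had gained at 4 h (median 0.75, 95.5% above 0). Of windows that CytoD had closed 0.35% had gained (median -0.11). Windows higher with CytoD had 26 of 2848 gained (0.91%) and 18 lost (0.63%), with a median of 0.08. Where CytoD had opened the window at 24 h, 14 of 615 (2.28%) had gained with CK666 at 4 h. Their median was 0.32, with 78.7% above 0. Where CK666 had closed the window at 24 h, 11 (1.70%) were lost at 4 h, with a median of -0.16.

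Single windows are given as examples. The Mars promoter held 390, 345 and 318 normalized counts with CK666 at 4 h against 69.5, 77.9 and 67.5 in control (log2 2.29, adjusted p = 7.35e-25). Of the 7 leading CK666 windows named above, 6 were called as gained at 4 h, while Grik1 was not (log2 1.04, adjusted p = 0.0197). Of the 8 leading CytoD windows only Lox was lost at 4 h, with 238, 258 and 213 against 899, 1052 and 777 (log2 -1.94, adjusted p = 5.37e-32). Rb1cc1 was lower by 0.72 log2 units, short of the limit.

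Among windows higher with CK666 at 24 h, those with the composite element had gained more often at 4 h. Of those that held it, 235 of 972 (24.2%) had gained at 4 h, 0 had lost, and the median was 0.79, while without it 9.63% had gained. Over all counterparts with the element 4.58% had gained. Of the 1131 windows with the element 800 belonged to the class that CK666 had opened, of which 24.4% had gained. The element and this class were therefore not told apart. In NIH3T3 cells at 4 h 6216 of 331963 windows were gained (1.87%) and 5549 were lost (1.67%). There 14.6% of the windows higher with CK666 in MSCs had gained, against 3.20% of those higher with CytoD and 1.94% of all counterparts. The median changes were 0.23, 0.20 and 0.01 in the same order, with 62.3%, 63.0% and 50.6% above 0. With the composite element 38.3% of windows higher with CK666 had gained there (2 lost, median 1.01). Of all counterparts with the element 11.5% had gained there, and of windows that CK666 had opened in MSCs 27.3%. The difference between the cell types was not tested.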

How the data were processed

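ATAC-seq libraries of 50000 cells each were prepared by the study with the Omni-ATAC protocol. Per the study's methods, the authors ran paired-end reads through the PEPATAC pipeline, aligned with bowtie2, called peaks with MACS2 and merged the peaks of all replicates into windows; the labels give mm10 as the build. The deposited values are raw read counts per window and library, without normalization, over 305931 windows at 24 h and 369846 at 4 h. The sources used here do not give tool versions, read filters or the shift for transposase insertion, so their effect on the counts was not tested. The 9 siRNA libraries of the 24 h table were not used here.

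The members of the comparison and all gene lists and motifs were chosen with earlier results of these data known. All 9 libraries taken at 24 h from untransfected MSCs entered a single fit with edgeR 4.0.16 in R 4.3.3 (filterByExpr, TMM, quasi-likelihood test, Benjamini-Hochberg adjustment over all tested windows). A window was called when its adjusted p was below 0.01 and its log2 difference exceeded 1 in either direction, as in the study's methods. Normalized counts are scaled to the mean effective library size, and errors of log2 differences are standard errors from the fit with 3 libraries per group. TMM assumes that most windows are unchanged and would remove a shift shared by all of them. The 4 h libraries were fitted by cell type in the same way. Genes and TSSs came from GENCODE vM21 and sequences from RefSeq GRCm38.p6. Tables were made with Python 3.11.15, numpy 2.4.6, pandas 2.3.3, scipy 1.17.1 and matplotlib 3.10.9.

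Named windows were, per direction, the 8 called windows with the largest log2 difference, 1 per gene, within these limits. They had a mean of at least 50 counts over the treated libraries and no overlap between drugs. Each lay inside a protein-coding gene or within 50 kb of its TSS. To these were added the 4 largest at a protein-coding TSS, the 3 genes and 3 runs with most called windows, called TSS windows and up to 2 called windows per direction for each gene list, and the 3 largest moved in opposite directions from control. Chac1 windows beyond the promoter, the second Fzd4 and Cxcl12 windows named, and those of Sel1l, Hspa5, Ccn2, Ccdc80 and Lims1 were named after their values were seen. Some results that the rule named are not reported here.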

Additional observations from a re-analysis of the deposited data

How the results depend on the processing

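The counts of windows higher with CK666 (6421) and with CytoD (3418) stayed within 1.5 times under other normalizations, filters and fits. DESeq2 1.42.0 gave 5268 and 2852, size factors by RLE 6352 and 3473, no filter on low counts 6417 and 3410, and the 6 treated libraries alone 6539 and 3686. With a GC trend removed from each library they were 6504 and 3365. They moved with the limits: with no fold limit they were 14415 and 6834, and beyond a log2 difference of 2 they were 1471 and 308. Leaving out a library gave 5122 to 6909 windows higher with CK666 and 2616 to 3538 higher with CytoD. At an unadjusted p under 0.05, 71061 windows differed.

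Replicate numbers did not pair the libraries, as same-numbered CK666 and CytoD libraries deviated from their group means with correlations of -0.00, -0.01 and -0.02, below the best of the other pairings for each number. With the replicate block the counts were 6303 and 3279, and with the replicate block and the GC trend removed they were 6368 and 3234.

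The 711 windows that gained at 4 h became 670 with an overlap of at least 50% of the window, 474 with DESeq2, and 572 to 638 without a library. The 18 lost at 4 h were 13 with the stricter overlap, 11 with DESeq2 and 14 to 21 without a library. Of 1588 repeats over the 89 named windows none changed direction, 1466 kept the call and 122 did not. Gene list counts moved by over 1.5 times in 128 of 684 repeats. The fit of the 6 treated libraries alone has no control and gives no classes. Depth limits windows with few reads, and 300323 windows passed the filter.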
